A study of Mus musculus with 3 samples.

Results

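The 46 nuclear receptor genes described here were taken from a fixed list of the family, and not by any measured value. They were located among 21523 protein-coding genes of a RefSeq annotation, and all 46 were found. Accessible chromatin had been mapped by FAIRE-seq in the whole uterus of pregnant C57BL/6J wild-type females on gestation day 4 after mating with fertile males, with no treatment and a single group of 3 samples. The females were 6 to 10 weeks old, and the labels give 3 mice. FAIRE (formaldehyde-assisted isolation of regulatory DNA) recovers DNA that crosslinking does not hold to protein, and sequenced peaks of it mark open chromatin. A peak was assigned to a gene when it overlapped the gene or the 10 kb on either side. It was called a gene-end peak when it came within 1 kb of an annotated end of that gene. By this rule 63 of the 12413 deposited peaks lay at nuclear receptor genes, 24 of them gene-end peaks.

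Nuclear receptors are transcription factors with a ligand-binding domain and, in all but a few members, a zinc-finger DNA-binding domain. Their known ligands include steroids, thyroid hormone, retinoids, and derivatives of fatty acids and cholesterol. Steroid receptors bind DNA as homodimers, many of the others bind as heterodimers with a retinoid X receptor, and several orphan members act as monomers or without a known ligand. In the uterus the receptors for oestrogen and progesterone direct the preparation for implantation, and Nr2f2 acts in the stroma downstream of progesterone.

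Since no column of the peak list belongs to a sample, spread between mice is unknown and no test between samples was possible. Genes are not replicates, so shares of nuclear receptor genes are given beside the same share of all protein-coding genes as a description, with no p-value. Fold enrichment is the authors' value for each peak, and it is used here to describe and rank peaks within this list, whose median was 5.80. A whole uterus mixes epithelium, stroma, muscle, vessels and immune cells. A strong peak in few cells and a weak one in many cannot be told apart. Library depth is unknown.

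Start-site sequences are shown first for 7 receptors whose open start site is described below, and for Pgr, whose start site was not in a peak. Ppara, Nr2c2, Esrra, Nr4a2 and Nr6a1 had the strongest peak at a 5′ end in their receptor subfamily, Nr1d2 the next strongest 5′-end peak of those left (the stronger gene-end peak of Nr1h2 is at its 3′ end), and Nr4a1 adds an open internal start site. Nr4a1 and Pgr were added after their values were seen. Each sequence is a RefSeq window (build GRCm38.p6) of 250 bases before to 50 after the start site, read 5′ to 3′ on the strand of the gene. The windows are Ppara at chr15:85735526-85735825 (plus strand), Nr2c2 at chr6:92092183-92092482 (plus), Esrra at chr19:6921759-6922058 (minus) and Nr4a2 at chr2:57123954-57124253 (minus). The others are Nr6a1 at chr2:38926412-38926711 (minus), Nr1d2 at chr14:18239057-18239356 (minus), Nr4a1 at chr15:101266596-101266895 (plus) and Pgr at chr9:8899583-8899882 (plus). Capitals mark matches, on either strand, to the 9 motifs searched, which are named with the base composition below.
Ppara: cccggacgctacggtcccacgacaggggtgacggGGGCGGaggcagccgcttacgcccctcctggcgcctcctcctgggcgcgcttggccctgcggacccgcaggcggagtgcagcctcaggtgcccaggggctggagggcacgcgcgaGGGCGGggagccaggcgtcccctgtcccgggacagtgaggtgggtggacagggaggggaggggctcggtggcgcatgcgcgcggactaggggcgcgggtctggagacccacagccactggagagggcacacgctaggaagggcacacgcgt
Nr2c2: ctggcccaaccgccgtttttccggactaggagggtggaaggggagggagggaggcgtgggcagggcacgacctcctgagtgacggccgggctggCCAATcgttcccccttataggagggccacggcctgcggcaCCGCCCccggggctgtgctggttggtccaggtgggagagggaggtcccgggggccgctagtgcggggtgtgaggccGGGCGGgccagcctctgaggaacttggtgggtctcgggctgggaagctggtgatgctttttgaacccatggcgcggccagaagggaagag
Esrra: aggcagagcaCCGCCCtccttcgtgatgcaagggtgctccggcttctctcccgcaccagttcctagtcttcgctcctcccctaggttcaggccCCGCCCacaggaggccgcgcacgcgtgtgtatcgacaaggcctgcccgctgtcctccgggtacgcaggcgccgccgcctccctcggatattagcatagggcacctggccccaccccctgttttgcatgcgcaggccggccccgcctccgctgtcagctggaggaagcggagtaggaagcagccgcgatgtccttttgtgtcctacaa
Nr4a2: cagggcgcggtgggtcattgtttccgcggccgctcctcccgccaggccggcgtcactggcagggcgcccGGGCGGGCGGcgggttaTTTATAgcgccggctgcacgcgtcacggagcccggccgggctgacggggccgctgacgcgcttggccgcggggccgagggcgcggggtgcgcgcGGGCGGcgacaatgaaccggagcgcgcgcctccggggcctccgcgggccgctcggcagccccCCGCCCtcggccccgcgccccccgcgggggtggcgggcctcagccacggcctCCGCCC
Nr6a1: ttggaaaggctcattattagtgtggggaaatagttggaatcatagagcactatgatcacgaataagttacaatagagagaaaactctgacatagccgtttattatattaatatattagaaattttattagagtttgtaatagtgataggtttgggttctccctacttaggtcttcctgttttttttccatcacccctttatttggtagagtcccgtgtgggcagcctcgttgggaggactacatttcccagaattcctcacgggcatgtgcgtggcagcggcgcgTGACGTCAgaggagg
Nr1d2: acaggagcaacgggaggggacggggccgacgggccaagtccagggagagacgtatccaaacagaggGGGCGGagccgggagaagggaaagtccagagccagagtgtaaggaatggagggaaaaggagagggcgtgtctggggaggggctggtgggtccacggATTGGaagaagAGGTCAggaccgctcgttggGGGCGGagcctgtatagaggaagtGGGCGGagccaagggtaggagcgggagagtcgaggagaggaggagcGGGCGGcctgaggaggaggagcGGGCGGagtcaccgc
Nr4a1: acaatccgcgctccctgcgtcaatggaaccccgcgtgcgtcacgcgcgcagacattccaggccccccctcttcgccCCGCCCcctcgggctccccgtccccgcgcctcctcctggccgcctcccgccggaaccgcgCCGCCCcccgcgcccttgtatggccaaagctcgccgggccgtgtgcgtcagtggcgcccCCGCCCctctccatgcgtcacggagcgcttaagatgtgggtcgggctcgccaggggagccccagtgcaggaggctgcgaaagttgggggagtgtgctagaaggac
Pgr: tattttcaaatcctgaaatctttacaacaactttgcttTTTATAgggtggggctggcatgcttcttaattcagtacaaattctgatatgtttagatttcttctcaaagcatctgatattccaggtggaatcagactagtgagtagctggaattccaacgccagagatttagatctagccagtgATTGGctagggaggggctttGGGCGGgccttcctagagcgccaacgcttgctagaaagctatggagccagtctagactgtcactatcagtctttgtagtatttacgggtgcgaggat

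Across the family, 22 of 46 genes (47.8%) had a gene-end peak, beside a background of 44.5% of all protein-coding genes, so the share was near that of genes in general. Some peak was in reach (inside the gene or up to 10 kb away) at 32 of 46 (69.6%), beside 57.6% of all protein-coding genes. Nuclear receptor genes were long, with a median of 48.4 kb against 17.4 kb over all protein-coding genes. Protein-coding genes were split by length into 3 classes of equal size. In the longest class (over 31.7 kb), 17 of 28 members had a peak in reach (60.7%), beside 71.2% of genes of that length. Members of the middle class had one in 10 of 11 cases (90.9%, beside 61.3%), and members of the shortest class (up to 9.03 kb) in 5 of 7 (71.4%, beside 40.4%). Gene-end peaks were found at 11 of 28 long members (39.3%, beside 56.6%), 8 of 11 of middle length (72.7%, beside 47.7%) and 3 of 7 short ones (42.9%, beside 29.2%).

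**Figure D1:**
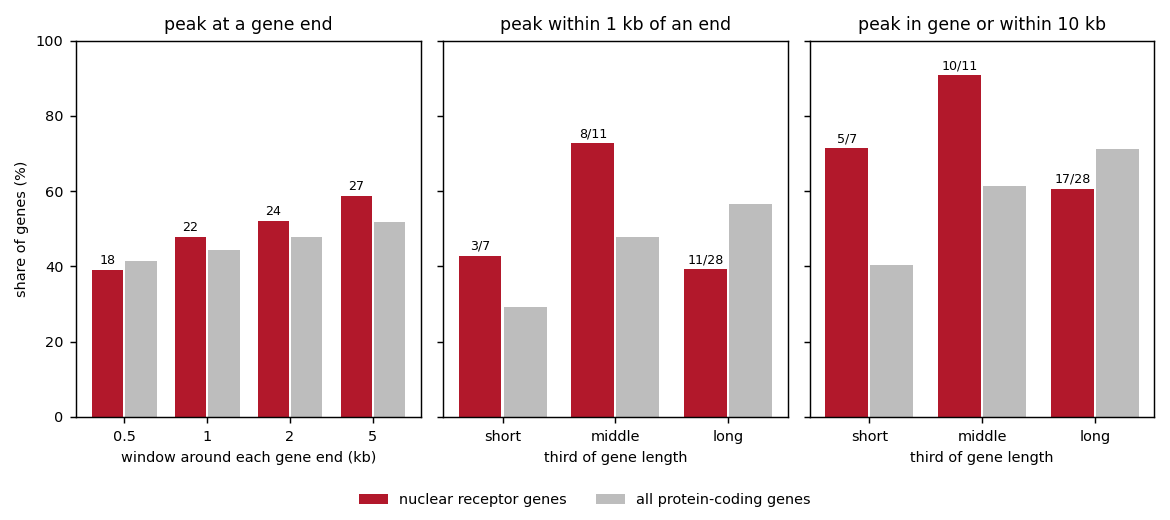
Share of genes with a FAIRE peak (%), nuclear receptor genes in red and all protein-coding genes in grey. The left panel varies the window around each gene end (kb), the middle and right panels split genes by length class, and numbers above the red bars count members. The long members sit below all genes of that class for gene-end peaks (39.3% beside 56.6%), and members of middle length above (72.7% beside 47.7%).

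Counting all peaks in reach, receptor genes with several peaks were more frequent than among genes in general. Of 46 members, 9 (19.6%) had 3 or more peaks, beside 4.96% of all protein-coding genes, and in the length classes from short to long the members stood at 28.6%, 27.3% and 14.3% beside 3.86%, 5.24% and 5.77%. Rara had 5 peaks, Rora and Nr4a1 had 4 each, and Rarg, Ppard, Rxrb, Nr2f2, Nr2f6 and Nr4a3 had 3 each. Another 10 members had 2 peaks, 13 had 1 and 14 had none. Some of these peaks also came within 1 kb of the end of another protein-coding gene. For them the gene concerned cannot be told apart: 5 of the 24 gene-end peaks and 14 of the other 39. Of the 9 genes with 3 or more peaks, Rxrb had 0 peaks free of such ends and Nr2f6 had 2. The others had 3 each, and no such count was made over all protein-coding genes. Counting only peaks free of other protein-coding gene ends, 26 of 46 members (56.5%) had a peak in reach, beside 42.0% of all protein-coding genes. A gene-end peak of that kind was at 17 members (37.0%), beside 33.2%.

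With the strand known for 42 members, gene-end peaks could be placed at the start or the 3′ end. The 5′ end had a peak in 20 of 42 (47.6%, beside 43.3% of the 17274 protein-coding genes with a strand). A listed start site had one within 1 kb in 21 of 42, beside 46.7%. The 3′ end had one in 1 of 42 (2.38%, beside 3.10%): Nr1h2, whose single peak lay 566 bp beyond its 3′ end, at an end of Pold1, a DNA polymerase subunit gene. Of all 63 peaks, 22 lay at the 5′ end of a member and 6 at another listed start site inside the gene. A further 15 lay elsewhere inside the gene and 18 outside it. Those inside Nr3c1 and Nr5a1, which have no listed start site, could not be checked against one. Of the 18 outside, 12 were at the end of a neighbouring protein-coding gene.

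**Figure D2:**
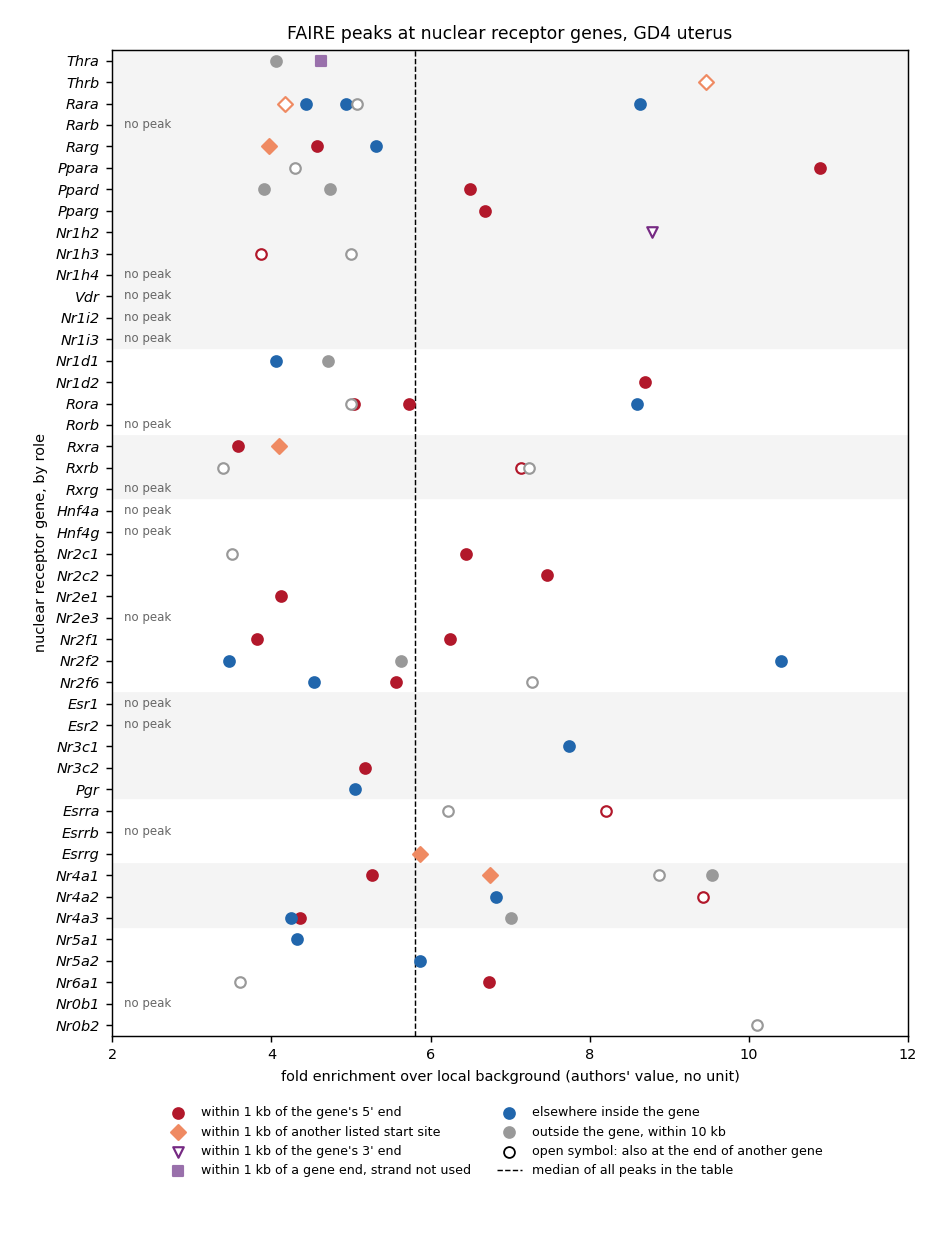
Fold enrichment over local background (horizontal axis, no unit) of every FAIRE peak in reach of each of the 46 nuclear receptor genes, ordered by role. Colours and symbols give the position of the peak, open symbols mark peaks that are also at the end of another protein-coding gene, and the dashed line is the table's median of 5.80. Peaks at 5′ ends range from 3.58-fold at Rxra to 10.9-fold at Ppara, and 14 genes have no peak of any kind in reach.

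Gene-end peaks of the family had a median fold enrichment of 5.98 (interquartile range 4.61 to 7.22), beside 6.06 (4.59 to 8.02) for the 9229 peaks at any protein-coding gene end. The other 39 peaks had a median of 5.05 (4.27 to 7.13), and 14 of them lay at the end of another protein-coding gene. The 25 at no such end had 5.05 (4.32 to 6.82), beside 5.12 (4.00 to 6.95) for the 3184 peaks away from such ends. Widths were of the same order, with medians of 407 bp at the family's gene ends and 452 bp at all of them. Only 3 of the 63 peaks passed 10-fold, at Ppara, Nr2f2 and Nr0b2. They ranked 692, 979 and 1095 of 12413 by fold. Summits near a listed start site lay farther from it than in genes in general, at a median of 203 bp over 25 peaks against 101 bp over all genes, with 13 upstream and 12 downstream.

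Of the 5 steroid hormone receptor genes, the receptors best known from the uterus, 3 had a peak in reach, with 1 peak each. The share was 57.6% over all protein-coding genes and 71.2% over those in the longest class, which holds all 5. Esr1 and Esr2, the oestrogen receptors, had none in reach. The nearest lay 179 kb from Esr1 and 77.8 kb from Esr2. Pgr, the progesterone receptor, had a single peak at 5.05-fold (chr9:8901604-8902147, pileup 50), with its summit 1981 bp downstream of the listed start site. That peak ranked 7749 by fold, below the middle of the list. Nr3c1, the glucocorticoid receptor, had 1 peak at 7.74-fold (chr18:39489402-39490221, 820 bp wide, pileup 104) inside the annotated span, 29200 bp from its nearer end. No start site was listed for Nr3c1, so whether this peak lies at one is unknown. Nr3c2, the mineralocorticoid receptor, had 1 at 5.17-fold (chr8:76899049-76899342), 966 bp from its 5′ end and 3137 bp upstream of the listed start site. Of these 5 genes, all in the longest class, 1 had a gene-end peak, beside 44.5% of all protein-coding genes and 56.6% of those in that class. None of the 4 with a listed start site had a peak within 1 kb of it, beside 46.7% of genes with one. With so few genes these counts are a description only.

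The oestrogen-related receptors, orphan relatives that control mitochondrial energy genes, differed among themselves. Esrra had a peak of 8.20-fold centred on its start site (chr19:6921637-6922169, pileup 99), with the summit 1 bp from it. The 533-bp peak covered the whole start-site window printed above, and it also reached the end of Catsperz, so it cannot be assigned to Esrra alone. A second peak at 6.22-fold lay beyond its 3′ end, at the ends of Prdx5 and Trmt112. Esrrg, a gene of 606 kb, had a single peak of 5.87-fold (chr1:187651810-187652106), 43472 bp into the gene and 224 bp downstream of a listed start site there. Esrrb, known for its part in pluripotent and trophoblast stem cells, had no peak in reach.

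The Nr4a genes encode orphan receptors that are induced within a short time of many stimuli, and all 3 had gene-end peaks and 2 to 4 peaks each. Nr4a2 had the strongest gene-end peak, 9.43-fold over 795 bp (chr2:57123588-57124382, pileup 87), with the summit 176 bp upstream of its start site. It was shared with a predicted gene beside it. A second Nr4a2 peak reached 6.82-fold (chr2:57114576-57115102), 9087 bp downstream of the start. Nr4a1 had 5.27-fold at its annotated 5′ end and 6.75-fold (chr15:101266670-101266987) 43 bp upstream of the listed start site, which lies inside the annotated span. Its strongest peak, 9.54-fold (chr15:101246356-101246743, pileup 100), was outside the gene, 7345 bp upstream of the 5′ end, and at no other protein-coding gene end. One more at 8.87-fold was at the end of Atg101, an autophagy gene. Nr4a3 had 4.36-fold just upstream of its start (summit 527 bp before it), 4.25-fold inside the gene, and its highest, 7.01-fold (chr4:48042803-48043241), 2318 bp upstream. In Nr4a1 and Nr4a3 the highest peak was therefore distal to the start, whereas in Nr4a2 it was at the start.

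Among retinoid, thyroid hormone and fatty acid receptors, each Ppar gene had a peak at a start site. Ppara, the fatty acid receptor of oxidative tissues, had the strongest gene-end peak of the family, 10.9-fold (chr15:85735243-85735790, pileup 111, −log10 q 73.6). Its summit was 347 bp upstream of the start site, and 265 bases of the printed window were inside the peak. A second, of 4.30-fold, lay beyond its 3′ end at Cdpf1. Ppard, which is needed for normal implantation in mice, had 6.49-fold with the summit 56 bp from its start (chr17:28232504-28233005). It had weaker peaks of 4.73-fold and 3.91-fold 8669 and 6477 bp upstream, inside the neighbouring gene Def6. Pparg, the adipocyte receptor, had 1 peak of 6.69-fold, 82 bp upstream of the first of its 3 listed start sites, and none at the others.

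The retinoic acid receptors were uneven. Rara had 5 peaks along the gene, the strongest of 8.63-fold (chr11:98951419-98951827, pileup 85) inside it, 11913 bp downstream of the nearest listed start site. The peak at its upstream start sites was weaker, at 4.17-fold, and lay also at the end of a predicted gene. The remaining Rara peaks had 4.43-fold and 4.94-fold inside the gene and 5.08-fold outside, at Gjd3. Rarg had 3 peaks of 3.97-fold to 5.32-fold, including 4.57-fold at its 5′ end and 3.97-fold 626 bp upstream of its second listed start site. Rarb, a retinoic acid target gene of 651 kb, had no peak in reach. The thyroid hormone receptor genes both had peaks. Thrb had 9.46-fold (chr14:17660593-17661036, pileup 93), 128 bp upstream of a listed start site and shared with a predicted gene. This was not a gene-end peak, because the annotated span begins farther upstream and the edge of the peak was 1368 bp inside it. Thra had 4.62-fold at 890 bp from the end with the lower coordinate, and shared a peak with Nr1d1.

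**Figure D3:**
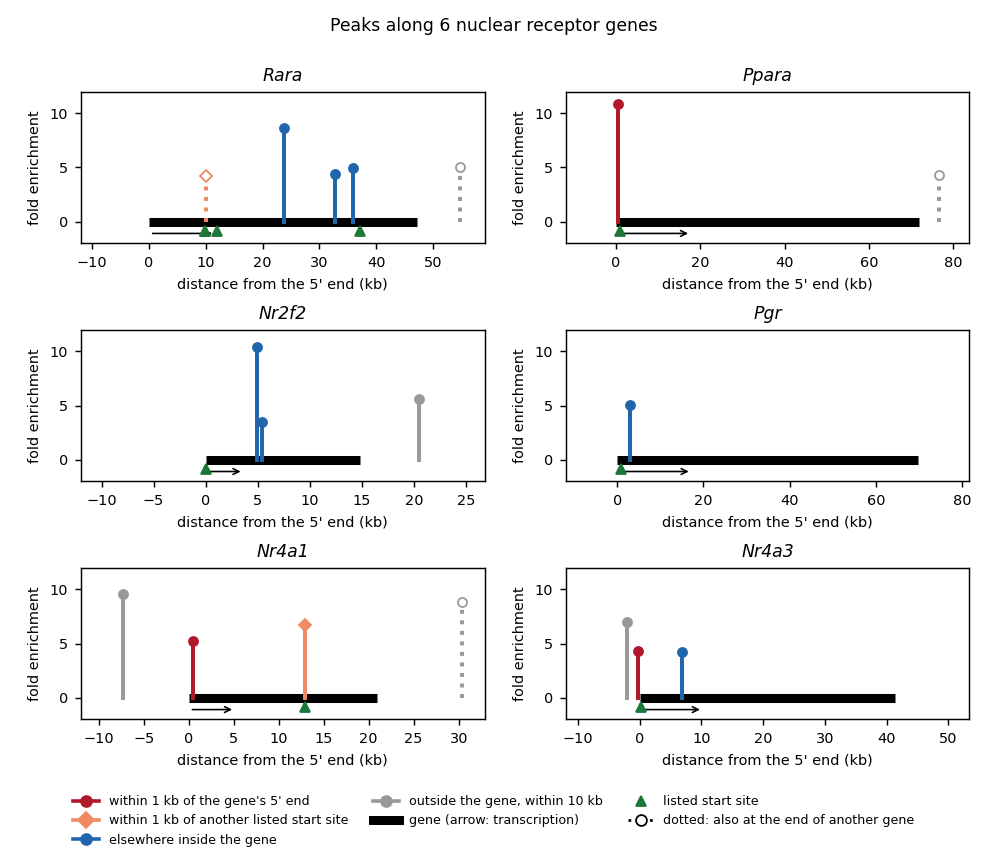
Peaks along Rara, Ppara, Nr2f2, Pgr, Nr4a1 and Nr4a3, with the distance of each summit from the annotated 5′ end in kb (horizontal axis, in the direction of transcription) and fold enrichment as height. Black bars are the genes and green triangles the listed start sites. The highest peak is at the start in Ppara (10.9-fold), inside the gene in Nr2f2 (10.4-fold) and Rara (8.63-fold), and upstream in Nr4a1 (9.54-fold) and Nr4a3 (7.01-fold).

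The sterol, bile acid, vitamin D and xenobiotic receptors had no peak free of the ends of other genes. Nr1h2 and Nr1h3, the oxysterol receptors, had only peaks shared with neighbours. The Nr1h2 peak had 8.78-fold at Pold1. Nr1h3 had 3.87-fold (chr2:91202682-91202898) at its 5′ end and at Acp2, and 5.00-fold beyond its 3′ end, at Madd. Nr1h4, the bile acid receptor, Vdr, the vitamin D receptor, and Nr1i2 and Nr1i3, the xenobiotic receptors of liver and gut, had none in reach. For Nr1h4 a peak of 3.87-fold lay just beyond the limit, at 10.2 kb.

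Rev-erb and ROR receptors are the nuclear receptors of the circadian clock, where they oppose each other at shared elements. Nr1d2 had a wide peak of 1223 bp at its start, 8.70-fold (chr14:18238240-18239462, pileup 135, −log10 q 76.0), the highest −log10 q of all peaks of the family. Nr1d1, its close relative, had no gene-end peak. Its peaks had 4.06-fold 1530 bp downstream of the start and 4.71-fold 8077 bp upstream of it. Rora, a gene of 735 kb, had 5.04-fold and 5.73-fold on either side of its start, 245 bp upstream and 181 bp downstream. Its strongest peak, 8.60-fold (chr9:69289657-69290056), was 636026 bp downstream of the start, and one of 5.00-fold lay beyond the 3′ end at Ice2. Rorb, known from retina and brain, had none in reach.

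The retinoid X receptors, partners of many of the receptors above, were weak or shared. Rxra had 3.58-fold 263 bp upstream and 4.09-fold 514 bp downstream of its nearest listed start site, and that of 3.58-fold was the weakest gene-end peak of the family. Rxrb had 7.14-fold over 897 bp at its start (chr17:34031525-34032421, pileup 125), shared with the zinc transporter gene Slc39a7. It had 2 more peaks upstream, of 3.39-fold and 7.24-fold, at ends of H2-Ke6, Slc39a7 and Ring1. Rxrg, the isoform of muscle and brain, had none in reach.

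Among the orphan receptors of subfamily NR2, the testicular receptors Nr2c1 and Nr2c2, widely expressed repressors and activators, had 6.45-fold and 7.46-fold at their starts, and Nr2c1 had one of 3.50-fold beyond its 3′ end at Ndufa12. The Nr2c2 peak was the widest of the family at 1317 bp (chr6:92091166-92092482, pileup 128). The COUP transcription factors, which act in mesenchyme and vessels, had several peaks each. Nr2f2 had 10.4-fold inside the gene (chr7:70361685-70362114, pileup 115), 4888 bp downstream of its start site, with a peak of 3.47-fold beside it and one of 5.63-fold beyond the 3′ end, and none at a gene end. Nr2f1 had 6.24-fold 533 bp upstream of its nearest listed start site (chr13:78199249-78199587) and 3.82-fold 543 bp downstream of it. Nr2f6 had 5.56-fold over 1017 bp at its start (chr8:71381332-71382348), 4.54-fold inside, and 7.28-fold beyond the 3′ end, at Ocel1. Nr2e1, a receptor of neural stem cells, had 4.12-fold 710 bp downstream of its start. Hnf4a and Hnf4g, of liver and gut, and Nr2e3, of photoreceptors, had none in reach.

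The remaining orphans had 1 or 2 peaks at most. Nr5a1, needed for the gonads and adrenal, had 4.32-fold inside the gene (chr2:38711618-38712287), 2255 bp from an end. Nr5a2, needed for decidualization in mice, had 5.87-fold inside the gene (chr1:136948946-136949254), 4518 bp downstream of its nearest listed start site. Nr6a1, the germ cell nuclear factor, had 6.73-fold at its start (chr2:38926085-38926521), 114 bp downstream, and 3.61-fold at the end of Olfml2a. Nr0b2, a receptor without a DNA-binding domain, had a single peak of 10.1-fold (chr4:133545675-133546207), 7365 bp upstream, at the end of Nudc, a nuclear movement gene. Nr0b1, its X-linked relative, had none in reach. Subfamilies NR1 and NR2 had gene-end peaks in 9 of 18 and 7 of 12 members, NR3 in 2 of 8, NR4 in 3 of 3, NR6 in 1 of 1, and NR5 and NR0 in 0 of 2 each, beside 44.5% of all protein-coding genes. The count for NR1, the subfamily with most members, was near that share.

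The base composition of start sites differed with peak overlap, in the family as in all genes. The promoter table held 63 start-site windows of 42 members, and 19 windows overlapped a peak. Those 19 had a median G+C content of 68.7% and a median of 28 CpG dinucleotides. The other 44 had 54.8% and 8 CpG. Over all genes of the promoter table the medians were 65.7% and 27 CpG for windows with a peak, and 49.3% and 4 CpG for windows without. That table holds 26794 genes, more than the 17274 protein-coding genes with a strand. These medians and the motif shares below are therefore not over protein-coding genes alone. Of the 19, 18 had at least 20 CpG, against 3 of the 44, which belonged to Nr4a3, Nr2f1 and Rorb. Some windows of the same gene overlap, so not all are separate sequences. The open Rara windows have start sites 9896 and 9918 bp from the 5′ end, and the Nr1h3 windows, without a peak, 7794 and 7713 bp. Nr6a1 was the exception among open windows, with 42.3% G+C and 10 CpG, and 110 of its 300 bases lay in the peak. The Pgr window had 43.7% G+C and 6 CpG, whereas those of Nr4a2 and Ppara had 81.7% with 52 CpG and 74.7% with 30 CpG.

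**Figure D4:**
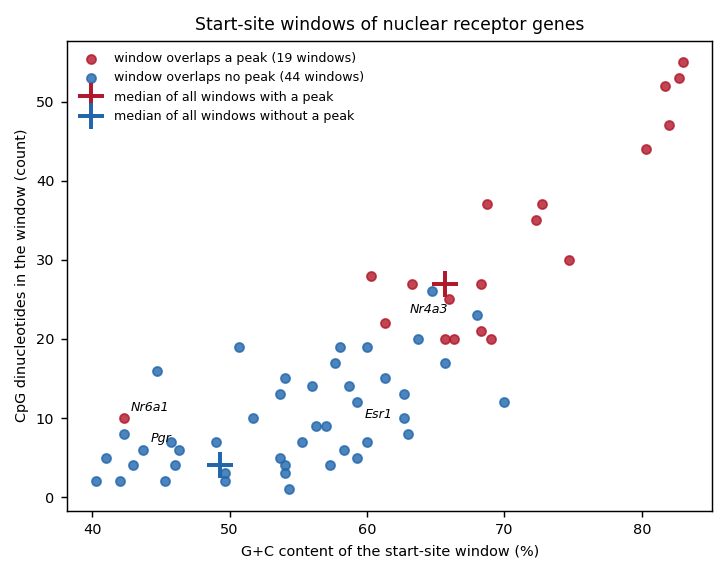
G+C content (%) and number of CpG dinucleotides in the 63 start-site windows of nuclear receptor genes, in red where the window overlaps a FAIRE peak and in blue where it does not. Crosses mark the medians of all windows in the promoter table (65.7% and 27 CpG with a peak, 49.3% and 4 CpG without). Of the 19 red windows, 18 have at least 20 CpG, and Nr6a1 stands apart from them.

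The GC box GGGCGG, a common element of CpG-rich promoters, was in 16 of the 19 open windows and in 12 of the 44 others, beside 78.1% and 19.8% of all such windows in the promoter table. It occurs 5 times in the Nr4a2 window, where 2 copies overlap, 5 times in that of Nr1d2, and 3 times in that of Nr4a1. The nuclear receptor core element AGGTCA was in a window of 11 of 42 members (26.2%), beside 18.1% of the 26794 genes in the table, and in 3 of the 19 open windows against 9 of the 44 others. Nr1d2 carries one in its open window, 77 bases before the start site. AAAGGTCA, the Nr4a element, which contains the core element, was in windows of Rxra and Rxrg, 2 of 42 members (4.76%, beside 1.72%), and neither window overlapped a peak. The cyclic AMP element TGACGTCA was in windows of Nr6a1 and Nr2e1 (4.76%, beside 2.05%). The extended ROR and Rev-erb element, the core element after an A/T-rich stretch, was in none of the 42 and in 0.261% of all genes. A steroid receptor palindrome, made of inverted AGAACA elements 3 bases apart, was in none of the 42 and in 0.0112% of all genes. No other steroid receptor palindrome was searched. The E-box CACGTG was in windows of 5 members (11.9%, beside 8.16%), the CCAAT box in those of 19 (45.2%, beside 41.3%), and TATAAA in those of 8 of 42, beside 15.7% of genes. Members had more windows per gene (63 over 42) than the table (32619 over 26794), which raises their shares per gene. Per window, CCAAT was in 7 of the 19 open windows and 15 of the 44 others, beside 35.8% and 38.3% of all such windows. TATAAA was in 1 of the 19 and 7 of the 44, beside 4.16% and 17.3%. For AGGTCA the shares of all such windows were 9.82% and 18.7%. Matches were counted on both strands of exact letters within these 300 bases only.

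Genes whose products work with the receptors had gene-end peaks more often. Of 32 coactivator, corepressor and chaperone genes, 29 (90.6%) had a gene-end peak, beside 44.5% of all protein-coding genes and 47.8% of the receptors. Taking the strongest gene-end peak of each gene, their median was 6.01-fold, beside 6.06 over all peaks at protein-coding gene ends. The highest values were at chaperones of steroid receptors, with Hsp90aa1 at 12.1-fold (chr12:110695875-110696723), Fkbp4 at 11.4-fold and Fkbp5 at 11.3-fold. Other chaperone genes were lower, down to 4.24-fold at Stip1. Ncoa3, a steroid receptor coactivator, had 11.1-fold, Carm1, a coactivator methyltransferase, 10.4-fold, and Ptges3, the p23 co-chaperone, 10.00-fold. The Ncoa3 peak was shared with a predicted gene and the Carm1 peak with AB124611. Only Med24, Ncoa7 and Tbl1x had no gene-end peak. The list was made with earlier results on some of these genes known.

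The limits of 1 kb and 10 kb decided a few calls. Just inside 1 kb lay the peaks of Thra (890 bp from the end, 4.62-fold) and Nr3c2 (966 bp, 5.17-fold). Just outside lay those of Nr1h3 beyond its 3′ end (1006 bp, 5.00-fold), Rxra (1109 bp, 4.09-fold), Esrra beyond its 3′ end (1129 bp, 6.22-fold), Nr1d1 (1265 bp, 4.06-fold) and Thrb (1368 bp, 9.46-fold). Near 10 kb, Nr4a1 and Rora had peaks at 9311 bp and 9642 bp, and Rarg and Nr2c2 had further peaks at 10.2 kb and 10.8 kb that were not counted.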

How the data were processed

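FAIRE DNA of 3 uterus samples of 1 group (gestation day 4) was sequenced. Per the submitters' processing notes, FastQC, Bowtie2, HOMER and MACS2 were used with the build GRCm38.p5. The sources used here do not state versions, call threshold, input control or pooling. The deposited columns, per the file headers, are peak positions, a pileup signal, a fold enrichment (a ratio, taken as relative to local background) and a −log10 q-value. The table names no sample.

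Gene spans came from RefSeq (GRCm38.p6), without 340 genes carrying scaffold coordinates (start below 3 Mb), on 20 chromosomes. Strand, start sites and sequences came from a RefSeq promoter table (GRCm38.p6) with entries for 42 of the 46 members. Thra, Nr5a1, Hnf4g and Nr3c1 were not among them. A gene could have several start sites, and distances are to the nearest. Overlap of 1 base counted. A peak in reach of several members was counted once. The overlap procedure was tested on simulated data: 200 of 200 planted peaks were called as planted. No p-value was computed. Python 3.11.15, pandas 2.3.3 and numpy 2.4.6 were used.

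Every member is named with its strongest peak. The members were taken by family and not by a measured value. Their list and the other lists were still set with earlier results of these data known. Alternatives varied the window, the reach, the overlap rule, the peaks and the genes. Depth is unknown, so no counting interval is given.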

Additional observations from a re-analysis of the deposited data

How the results depend on the processing

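With windows of 0.5 kb, 2 kb and 5 kb, 18, 24 and 27 of 46 members had a gene-end peak (39.1%, 52.2% and 58.7%, beside 41.5%, 47.7% and 51.9% of all protein-coding genes), so the order of the shares turned round at 0.5 kb. The 6207 peaks of highest fold left 12 members with a gene-end peak (26.1% beside 26.2%), and the 6207 of highest −log10 q left 13 (28.3%) and 21 with a peak in reach (45.7% beside 35.9%). Among 27 members with no other protein-coding gene end within 5 kb, 10 had one (37.0% beside 34.2%). With 50 kb on each side, 111 peaks were in reach. The median fold of gene-end peaks was 6.34 with windows of 0.5 kb and 5.64 with 2 kb. Without peaks at another protein-coding gene end the median was 5.56. That of the other peaks was 5.08 with windows of 2 kb. Coregulator and chaperone genes with a gene-end peak numbered 16 of 32 (beside 26.2%) with the 6207 peaks of highest fold. Fewer peaks lower every such count by construction. The other 15 of 25 alternatives stayed within 1.5 times the reported count or gave the same median. No replicate could be left out, and no paired analysis was possible because the table names no sample. Depth per sample is unknown, so a gene with no peak may have open chromatin below the authors' call threshold.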
